A study of Mus musculus with 8 samples.

Results

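Chrna3, Chrnb4, Gpr151, Gng8 and Pou4f1 are 5 of the 32285 genes in the count tables, and they mark the habenula, a small pair of nuclei above the thalamus. They were selected on measured values, namely their raw UMIs (counted RNA molecules) per section and the number of habenular spots across the 4 groups, so their levels are described here without a test. The sections came from male-labelled p16-3MR mice (genotype given as wild-type p16-3MR) 9 to 10 months old, and 2 coronal sections of 10 µm were measured in each group. PTX mice received paclitaxel at 5 mg/kg per day in 2 cycles of 5 days, 7 days apart. PTX+GCV mice received paclitaxel in the same way and then ganciclovir at 25 mg/kg per day, PTX+ABT263 mice received paclitaxel and then ABT263 (navitoclax) at 1.5 mg/kg per day, and Control mice received vehicle alone. Brains were taken 6 months after paclitaxel. All groups, Control included, carried the 3MR transgene, whose p16 promoter drives a viral thymidine kinase that lets ganciclovir kill cells in which it is active. Whether the paired sections of each group are from different mice is not stated, and the spread between them may be technical.

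The medial habenula is a dense cholinergic and peptidergic nucleus that sends its axons to the interpeduncular nucleus, and it is known as a main site of nicotinic receptor expression in the brain. Chrna3 and Chrnb4 encode the α3 and β4 subunits, which assemble into the acetylcholine-gated cation channel of this pathway. Gpr151 encodes an orphan G protein-coupled receptor of habenular neurons and their axons, Gng8 encodes a γ subunit of heterotrimeric G proteins, and Pou4f1 (Brn3a) encodes a POU-domain transcription factor that specifies habenular neurons during development.

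Chrna3 and Chrnb4 are neighbours in the genome, and their start regions are shown because both genes had 0 UMIs in the habenular spots of the same section. In GRCm38 Chrna3 lies at chr9:55010111-55026562 and Chrnb4 at chr9:55028154-55048779, both on the minus strand with 1592 bases between them, and Chrna5 (the α5 subunit) ends 2332 bases beyond Chrna3. Gng8 lies at chr7:16891786-16895436 on the plus strand and Pou4f1 at chr14:104461676-104467999 on the minus strand. Chrnb4 overlaps the antisense gene model Gm47877, which held 0 UMIs in each of the 8 sections. Each sequence runs from 250 bases before to 50 bases after the RefSeq start site (GRCm38.p6, minus strand, read 5′ to 3′). Capitals mark a GC box, GGGCGG on either strand.
Chrna3 promoter, chr9:55026513-55026812: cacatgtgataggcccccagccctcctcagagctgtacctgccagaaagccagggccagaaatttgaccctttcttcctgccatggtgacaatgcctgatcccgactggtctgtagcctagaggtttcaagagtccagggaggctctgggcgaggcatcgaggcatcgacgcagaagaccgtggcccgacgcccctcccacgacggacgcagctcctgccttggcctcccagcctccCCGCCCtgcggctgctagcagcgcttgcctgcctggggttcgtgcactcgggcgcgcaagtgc
Chrnb4 promoter, chr9:55048495-55048794: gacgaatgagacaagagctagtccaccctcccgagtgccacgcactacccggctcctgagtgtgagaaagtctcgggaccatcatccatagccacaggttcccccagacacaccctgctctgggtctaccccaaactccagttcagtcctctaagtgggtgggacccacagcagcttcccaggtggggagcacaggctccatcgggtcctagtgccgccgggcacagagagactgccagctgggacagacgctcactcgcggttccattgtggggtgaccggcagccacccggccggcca
The GC box was found in Chrna3 (1 match) and not in Chrnb4 (0 matches), and 35.7% of the 32851 promoters of this length hold it on either strand. The E-box, CANNTG, which reads the same way on both strands, had 3 matches in Chrna3 and 2 in Chrnb4, and 72.3% of promoters hold it. The homeodomain core TAATTA had 0 matches in the promoters of Chrna3, Chrnb4, Gng8 and Pou4f1, and 5.29% of promoters hold it.

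The 8 sections held 2346 to 2839 spots after filtering and 19870666 to 42886400 UMIs, with Control section 1 the shallowest. A spot is a capture area 55 µm wide, 100 µm from the next, and can hold several cells. Levels over a section are given as CPM, UMIs per 1000000 UMIs of that section. Both sections labelled PTX+ABT263 carried Xist, which coats the inactive X chromosome, at 19.7 and 19.3 CPM and the Y-linked Ddx3y at 0.444 and 0, against 0.0233 and 0 for Xist and 31.5 and 32.6 for Ddx3y in the PTX sections, which goes against their male label. They are therefore called the PTX+ABT263-labelled sections throughout, and since the mice do not match 1 label, their treatment, taken from the same labels, is in doubt too. They are counted below among the 6 paclitaxel sections by their label.

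As a ratio, the 2 receptor genes differed most between the PTX and the Control sections, while in CPM the widest gap was that of Gng8. Chrna3 had 198 and 169 UMIs in the PTX sections, 103 and 244 in the PTX+GCV sections and 201 and 193 in the PTX+ABT263-labelled sections, against 29 and 43 in the Control sections. As levels these were 4.62 and 4.43 CPM for PTX, 3.92 and 6.33 for PTX+GCV, 5.25 and 5.35 for the PTX+ABT263-labelled sections, and 1.46 and 1.30 for Control. The 6 paclitaxel sections all lay above both Control sections, as did the PTX and PTX+GCV sections taken alone. By group mean the PTX+ABT263-labelled sections came first, then PTX+GCV, PTX and Control, and the PTX+GCV sections lay on both sides of the PTX sections and of the PTX+ABT263-labelled sections. A lower level in tissue of this kind can mean less of a structure on the array, fewer cells of a type or less RNA per cell, which cannot be told apart. Both Control patches lay at the end of the array, as described below. Chrnb4 had 109 and 75 UMIs with PTX, 47 and 82 with PTX+GCV and 98 and 118 in the PTX+ABT263-labelled sections, against 3 and 24 in Control. Its group means were 2.91 ± 0.502 CPM in the PTX+ABT263-labelled sections, 2.25 ± 0.406 with PTX, 1.96 ± 0.239 with PTX+GCV and 0.437 ± 0.405 in Control (SD, n = 2 sections each). For Chrnb4, PTX and PTX+GCV overlapped, and Control lay below the other groups.

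The signalling genes, selected on the same values, were lowest in Control too. Gpr151, a gene with a single exon on chromosome 18, had 228 and 161 UMIs with PTX, 185 and 353 with PTX+GCV and 220 and 275 in the PTX+ABT263-labelled sections, against 57 and 91 in Control. The level of Gpr151 averaged 8.10 ± 1.49 CPM with PTX+GCV, 6.68 ± 1.33 in the PTX+ABT263-labelled sections, 4.77 ± 0.772 with PTX and 2.81 ± 0.0879 in Control (SD, n = 2 sections each). The PTX sections did not overlap either neighbour in this order, whereas PTX+GCV overlapped the PTX+ABT263-labelled sections. Gng8, the G protein γ subunit, had 639 and 520 UMIs with PTX, 521 and 537 with PTX+GCV and 514 and 743 in the PTX+ABT263-labelled sections, against 102 and 241 in Control. The 3 groups given paclitaxel overlapped for Gng8 at 13.4 to 20.6 CPM, and Control lay lower at 5.13 and 7.27. Pou4f1, the transcription factor, had 81 and 50 UMIs with PTX, 51 and 103 with PTX+GCV and 74 and 85 in the PTX+ABT263-labelled sections, against 13 and 14 in Control. Its levels were 1.31 to 2.67 CPM in the 6 paclitaxel sections and 0.654 and 0.422 in Control.

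**Figure D1:**
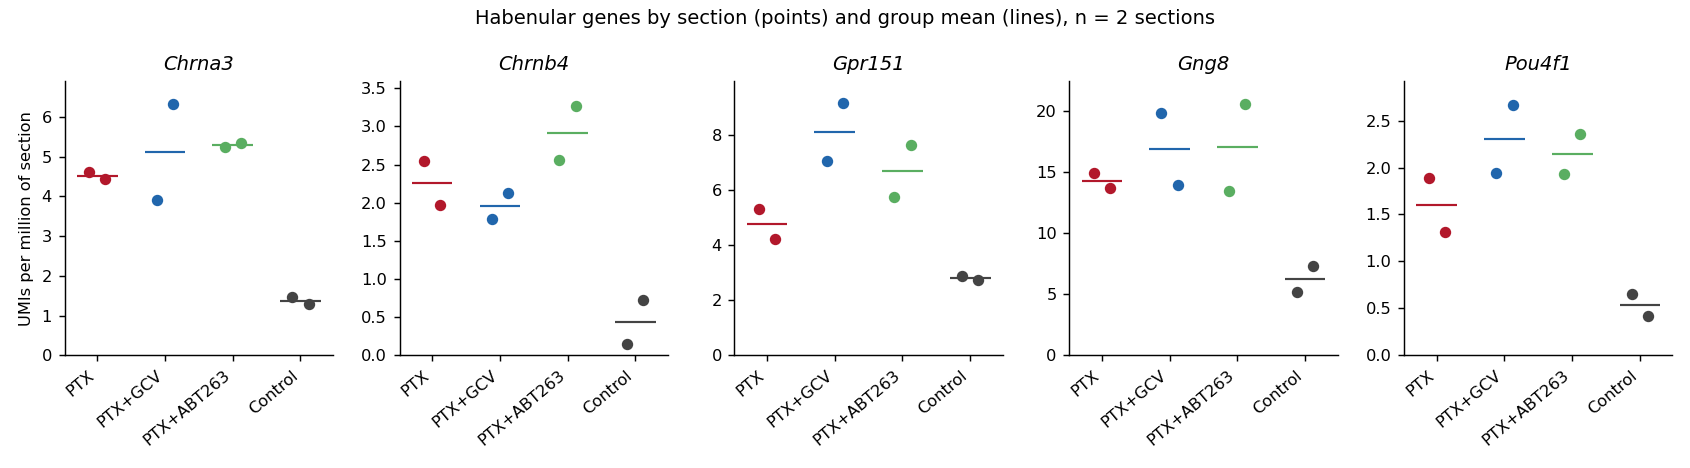
Level of each gene in CPM, UMIs scaled to the depth of the section (vertical axis, linear from 0) in each of the 8 sections (points), by group, with the group mean (line, n = 2 sections). For Chrna3 the PTX sections sat at 4.62 and 4.43 and the Control sections at 1.46 and 1.30. Control was lowest for all 5 genes, which were selected on these values, so nothing is read from that count.

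Fitted over whole sections with edgeR, the log2 fold changes of PTX against Control were 1.67 for Chrna3 (SE 0.23), 2.12 for Chrnb4 (SE 0.40), 0.72 for Gpr151 (SE 0.21), 1.11 for Gng8 (SE 0.25) and 1.58 for Pou4f1 (SE 0.34). Of the 5 genes 1, Chrna3, passed an adjusted p of 0.05, beside 0.126% of the 16671 genes tested, and since the genes were selected on this contrast nothing is read from that count. The comparisons of PTX+GCV and of the PTX+ABT263-labelled sections with PTX share the PTX sections. With PTX+GCV against PTX the log2 fold changes were 0.16 for Chrna3 (SE 0.18), -0.24 for Chrnb4 (SE 0.31), 0.73 for Gpr151 (SE 0.18), 0.19 for Gng8 (SE 0.22) and 0.50 for Pou4f1 (SE 0.26). In the PTX+ABT263-labelled sections they were 0.34 for Chrna3 (SE 0.18), 0.48 for Chrnb4 (SE 0.29), 0.60 for Gpr151 (SE 0.18), 0.37 for Gng8 (SE 0.22) and 0.53 for Pou4f1 (SE 0.25). In neither comparison did any of the 5 genes pass, beside 0.024% (PTX+GCV) and 0.138% (PTX+ABT263-labelled sections) of all genes called. Without the PTX+ABT263-labelled sections each of the 5 log2 fold changes of PTX against Control moved by 0.00715 at most. Each group has its own mean in the fit, so a shift near 0 was fixed in advance and does not measure robustness. Among the sections compared, Chrnb4 stood at 3.85 without Control section 2, which leaves a Control of 3 UMIs, and at 1.55 without Control section 1. Over 15 alternatives the other genes ranged from 1.61 to 1.73 (Chrna3), 0.54 to 0.87 (Gpr151), 0.89 to 1.46 (Gng8) and 1.27 to 1.83 (Pou4f1). With PTX+GCV against PTX the direction changed for Chrna3 (-0.21 without PTX+GCV section 2, 0.41 without section 1) and for Gng8 (-0.10 without PTX+GCV section 1, 0.47 without section 2). For Gng8 in the PTX+ABT263-labelled sections it was -0.01 without section 2 and 0.68 without section 1.

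Most of these UMIs came from a single patch of touching spots. A spot with at least 5 summed UMIs of the 5 genes was called habenular, and 173 of 21328 spots met this: 19 and 19 in the PTX sections, 25 and 34 with PTX+GCV, 25 and 29 in the PTX+ABT263-labelled sections, and 7 and 15 in Control. The largest touching patch held all of them, or all but 1 in PTX section 2 and PTX+ABT263-labelled section 1 and all but 3 in Control section 2. Over the 8 sections 35 habenular spots had 5 to 7 summed UMIs, just inside the threshold, and 87 spots had 3 or 4. The habenular spots held 75.6% and 70.5% of the summed UMIs of the section with PTX, 72.7% and 76.3% with PTX+GCV and 70.7% and 81.8% in the PTX+ABT263-labelled sections, against 27.5% and 36.3% in Control. Among the genes that did not choose these spots, Tac2, which encodes neurokinin B of the medial habenula, had 684 and 697 UMIs in them with PTX, 378 and 565 with PTX+GCV and 490 and 640 in the PTX+ABT263-labelled sections. In Control section 1 Tac2 had 0 UMIs there and in Control section 2 it had 32. Nwd2, another habenular gene, had 304 and 207 UMIs in the PTX patches and 5 and 22 in the Control patches. Markers of the medial habenula were thus present in the patches of the 6 paclitaxel sections, and in the Control patches Tac2 was at 0 or sparse. Genes of the lateral habenula, 8 in all, were not lower in the Control patches. Together they had 12.1 and 8.88 UMIs per 10000 in the habenular spots of Control and 6.43 and 5.98 with PTX. They had 7.74 and 9.77 with PTX+GCV and 7.22 and 8.60 in the PTX+ABT263-labelled sections. Over whole sections this list stood at 668 to 817 CPM, which is of similar size on that scale, so it did not set the habenular spots apart. The 12.1 comes from Control section 1, whose habenular spots held only 24769 UMIs of all genes.

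Both the number of spots and the level per spot were lower in Control, and at the threshold of 5 summed UMIs the level differed more. This split depends on the threshold: with 10 or more summed UMIs there were 15 and 15 spots with PTX and 1 and 6 in Control. The PTX habenular spots held 1636 summed UMIs in 38 spots and the Control ones 206 in 22 spots, ratios of 7.94 for UMIs and 1.73 for spots. A habenular spot averaged 49.9 and 36.2 summed UMIs with PTX, against 8 and 10 in Control, and the group ratio was 4.60. That ratio is not corrected for depth, which was higher per PTX spot by 0.80 on the log2 scale. Per 10000 UMIs the pooled log2 ratio was 1.40, against 2.20 per spot. The richest spot reached 163 and 141 summed UMIs in the PTX sections and 12 and 26 in the Control sections. The receptor genes differed most: Chrna3 had 280 UMIs in PTX habenular spots and 8 in Control, and Chrnb4 had 157 and 8. Gpr151 had 286 and 84, Gng8 had 799 and 93, and Pou4f1 had 114 and 13. In Control section 1 the habenular spots held 0 UMIs of Chrna3 and 0 of Chrnb4 but 30 of Gpr151, 22 of Gng8 and 4 of Pou4f1, in 24769 UMIs of all genes. A count of 0 there allows a level of up to 1.21 per 10000 UMIs, and both PTX sections lay above it for Chrna3, at 3.74 and 4.05, and for Chrnb4, at 2.30 and 1.99. Per 10000 UMIs of the spots the 5 genes together stood at 23.0 and 22.1 with PTX and at 22.6 and 6.94 in Control. The median depth of a habenular spot was 3536 UMIs in Control section 1 and 10241 to 21581 in the other 7 sections. In spots that shallow the threshold of 5 summed UMIs itself sets a high floor per 10000, so the 22.6 is not comparable with the other values. With every spot thinned to 5000 UMIs and shallower spots left out, an average of 21.2 and 27.2 spots had 2 or more UMIs of the 5 genes with PTX, 33.8 and 40.5 with PTX+GCV and 35.4 and 37.6 in the PTX+ABT263-labelled sections, against 4.72 and 18.3 in Control, and all 7 habenular spots of Control section 1 were too shallow to be thinned.

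Between the senolytic groups and PTX more spots were found and the pooled level per spot was lower. The PTX+GCV sections had 59 habenular spots with 28.2 summed UMIs per spot, against 38 spots with 43.1 in the PTX sections, and the totals were 1666 and 1636. The sections labelled PTX+ABT263 had 54 spots with 35.9 per spot. By section the PTX+GCV values of 26.4 and 29.6 per spot lay below the PTX values of 49.9 and 36.2, and those of the PTX+ABT263-labelled sections, 31.3 and 39.9, overlapped them. Both sections of each had more habenular spots than both PTX sections. Per 10000 UMIs the 5 genes stood at 22.9 and 20.9 with PTX+GCV and at 18.3 and 24.8 in the PTX+ABT263-labelled sections, against 23.0 and 22.1 with PTX, and both overlapped the PTX sections. Depth per habenular spot was lower than with PTX by 0.54 on the log2 scale with PTX+GCV and by 0.20 in the PTX+ABT263-labelled sections.

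**Figure D2:**
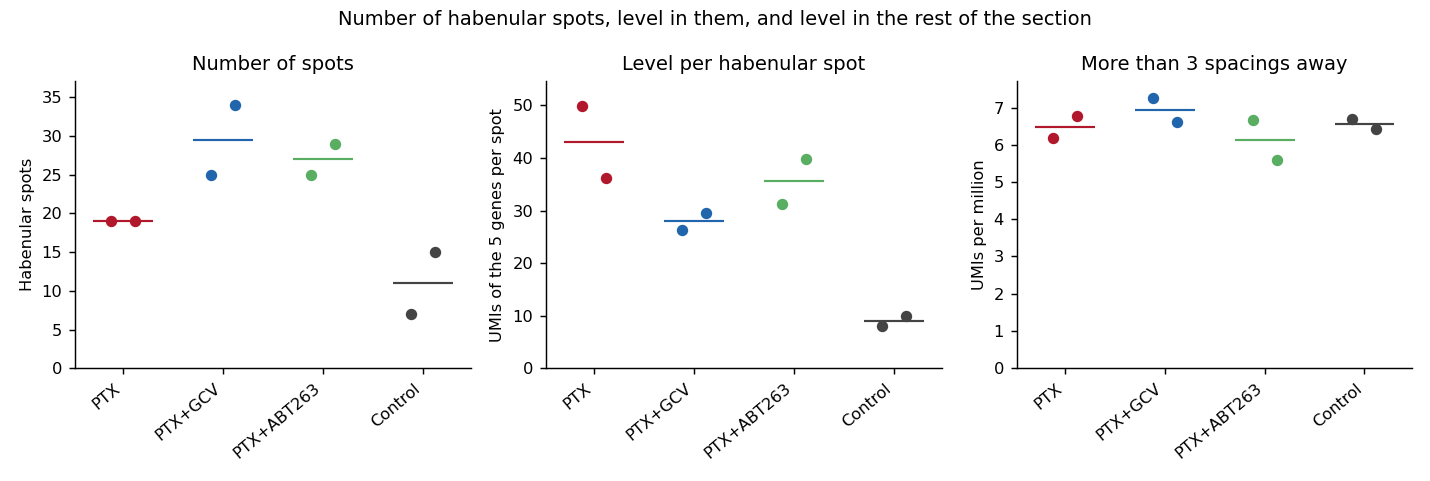
Number of habenular spots (left), summed UMIs of the 5 genes per habenular spot (middle) and summed CPM more than 3 spot spacings from any habenular spot (right), by section (points) with group means (lines, n = 2 sections). Control was lowest in the left and middle panels (7 and 15 spots), and its 6.70 and 6.43 CPM lay among the other sections on the right.

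In both Control sections the habenular spots lay against the end of the capture array. The array has 78 rows. The habenular spots of Control, single spots apart from the patch included, occupied the outermost 3 and 4 rows, with 2 and 6 of them in the outermost row itself. In the other sections 0 habenular spots lay in the outermost row, and the nearest was 4 and 15 rows away with PTX, 1 and 3 with PTX+GCV and 3 and 9 in the PTX+ABT263-labelled sections. Of the places next to habenular spots, 4 of 42 and 12 of 90 fell off the array in Control and 0 in the other 6 sections. Conversely 0 such places in Control lay on the array without tissue, against 18 and 8 with PTX, 13 and 17 with PTX+GCV and 13 and 11 in the PTX+ABT263-labelled sections. Tissue filled the outermost row beside the patch with 13 and 12 spots in Control and with 0 to 4 in the other sections. Within Control section 2 the summed UMIs per row were 85 in the outermost row, 62 in the next, 25 in the third and 16 in the fourth. In Control section 1 they were 23 in the outermost row, 33 in the next and 13 in the third, so the richest row was not the outermost. The tissue beyond the array was not measured, and the part of the cut in the Control values was not tested.

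**Figure D3:**
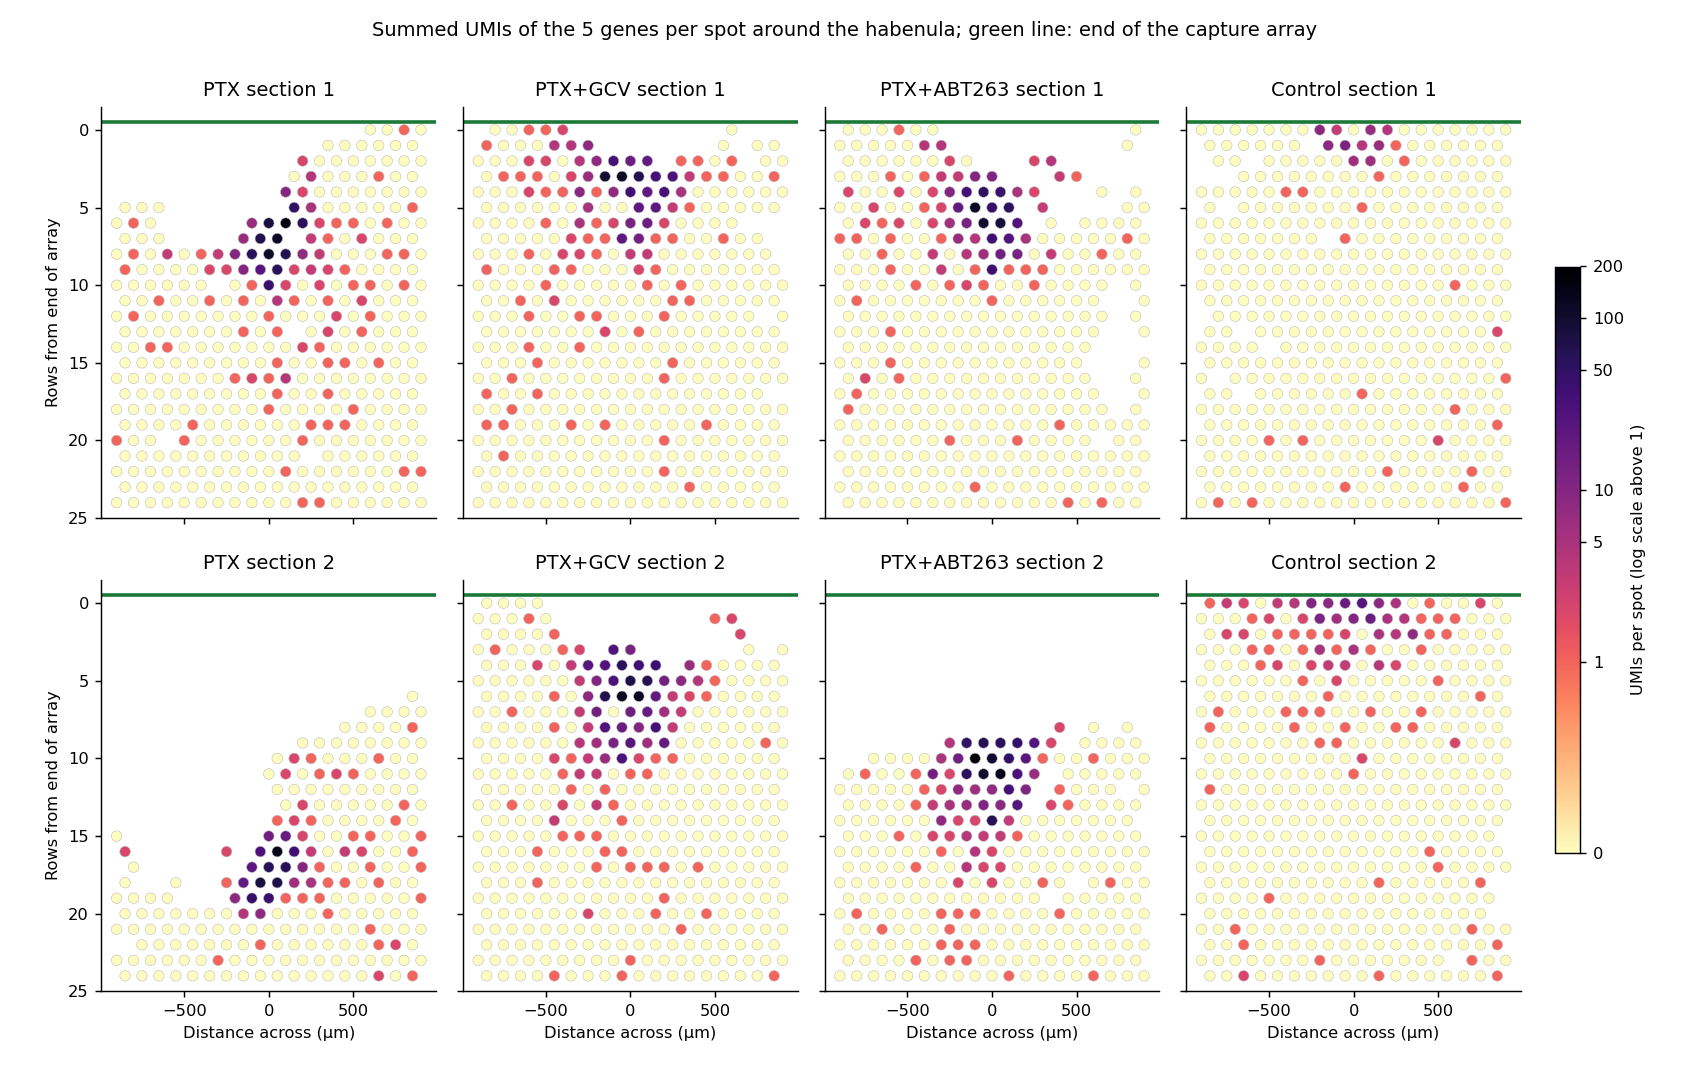
Each dot is a kept spot within 900 µm of the middle of the habenular patch, placed by rows from the nearer end of the array (vertical axis) and distance across (µm, horizontal axis), and coloured by the summed UMIs of the 5 genes (log scale above 1); blank places had no tissue or were left out. The patches of the 2 Control sections start at row 0, under the green line that marks the end of the array, while those of the other 6 sections have no habenular spot in row 0, and their richest spots hold 112 to 175 UMIs.

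Habenular spots with at least 5 Tac2 UMIs were set apart from the remaining ones, by a raw count that also depends on the depth of the spot. There were 14 and 16 such spots with PTX, 11 and 16 with PTX+GCV, 15 and 15 in the PTX+ABT263-labelled sections and 0 and 0 in Control. In the Tac2-rich spots Chrna3 had 4.08 and 4.49 UMIs per 10000 with PTX, 3.97 and 6.36 with PTX+GCV and 4.17 and 4.53 in the PTX+ABT263-labelled sections. In the remaining habenular spots Chrna3 had 1.58 and 0.572 with PTX, 0.236 and 0.357 with PTX+GCV and 0.741 and 0.406 in the PTX+ABT263-labelled sections, against 0 and 0.370 in Control. Chrnb4 followed the same split, at 2.14 to 3.30 per 10000 in Tac2-rich spots and at 0 to 0.741 in the remaining habenular spots. The 0.741 belongs to PTX+ABT263-labelled section 1, where 6 of the 12 UMIs came from 1 spot that does not touch the patch. Gpr151 had 4.56 and 3.66 per 10000 in Tac2-rich spots with PTX, 5.40 and 5.50 with PTX+GCV and 5.33 and 5.75 in the PTX+ABT263-labelled sections. In the remaining spots Gpr151 had 2.63 and 2.29 with PTX, 4.96 and 6.25 with PTX+GCV and 2.10 and 3.83 in the PTX+ABT263-labelled sections, so it was lower there in 5 of the 6 sections and higher in PTX+GCV section 2. Outside the Tac2-rich spots Control section 2 stood at 2.50 for Gpr151, 3.28 for Gng8 and 0.416 for Pou4f1. The spans of the 6 paclitaxel sections were 2.10 to 6.25, 2.86 to 6.38 and 0.286 to 1.38, and these values lay within them. For Control section 2 these are all 15 habenular spots, while for the paclitaxel sections they are only the spots poor in Tac2. The overlap is therefore not read as a likeness of the groups. Control section 1 lay above those spans for the same 3 genes, at 12.1, 8.88 and 1.61 per 10000 on 30, 22 and 4 UMIs. Its habenular spots held only 1892 to 4868 UMIs each, so the threshold of 5 summed UMIs itself sets a high floor per 10000. These levels are therefore not comparable with those of the deeper sections.

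**Figure D4:**
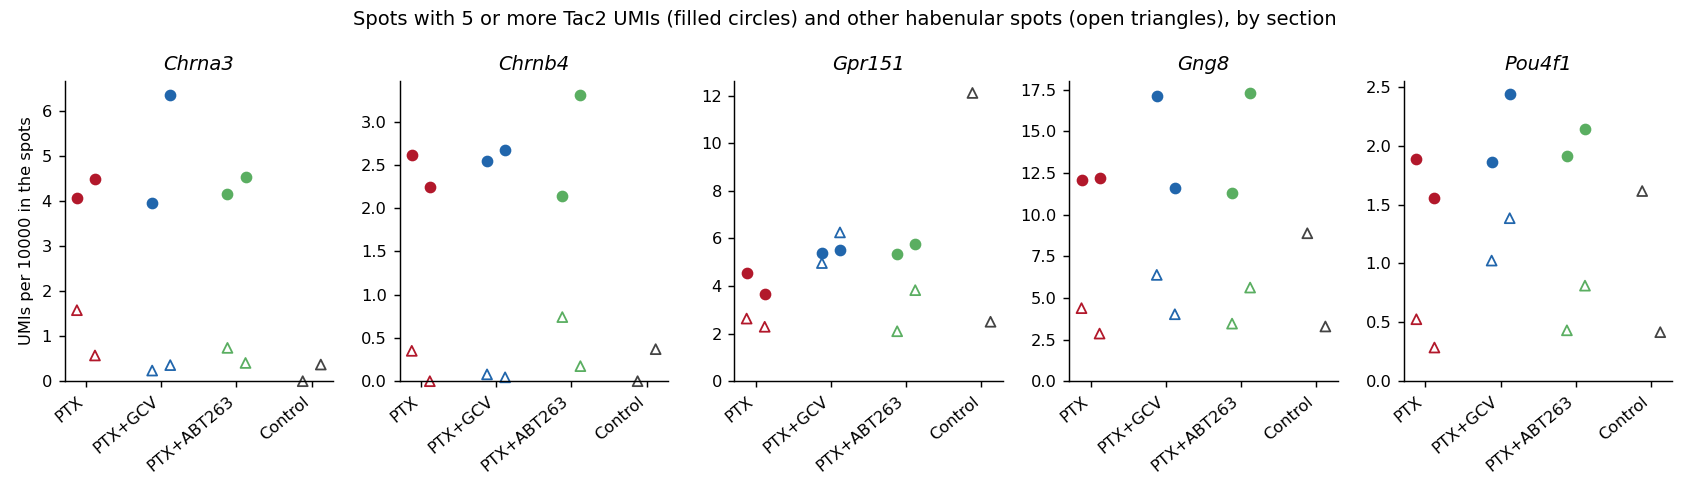
UMIs of each gene per 10000 UMIs (linear axis from 0) in habenular spots with at least 5 Tac2 UMIs (filled circles) and in the remaining habenular spots (open triangles), by section and group. Control has triangles only, since it had 0 Tac2-rich spots, and for Chrna3 and Chrnb4 these lie at 0 and 0.370 per 10000.

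More than 3 spot spacings from any habenular spot the summed levels of the groups overlapped. By the rule that chose the habenular spots, every other spot holds fewer than 5 summed UMIs of the 5 genes, which caps these levels. The 5 genes together had 6.18 and 6.77 CPM there with PTX, 7.26 and 6.60 with PTX+GCV and 6.66 and 5.59 in the PTX+ABT263-labelled sections, against 6.70 and 6.43 in Control. Chrna3 had 0.921 and 0.955 CPM there with PTX and 1.47 and 0.843 in Control, and its fitted log2 fold change was -0.29 (SE 0.33). For Chrnb4 it was 0.20 (SE 0.47), for Gpr151 0.54 (SE 0.33) and for Gng8 -0.15 (SE 0.20), and Pou4f1 was too sparse to be fitted. Against PTX, Chrna3 stood there at 0.63 (SE 0.31) with PTX+GCV and at 0.81 (SE 0.30) in the PTX+ABT263-labelled sections, and neither passed. Gng8 was the gene seen most widely, with a UMI in 3.09% to 6.04% of these spots. For a spot 1 spacing from the habenular spots Chrna3 stood at 0.0892 to 0.615 per 10000 in the paclitaxel sections, against 2.33 to 4.05 inside them. Chrna3 is among the genes that set the threshold, so a drop here is fixed in advance and does not measure an edge.

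**Figure D5:**
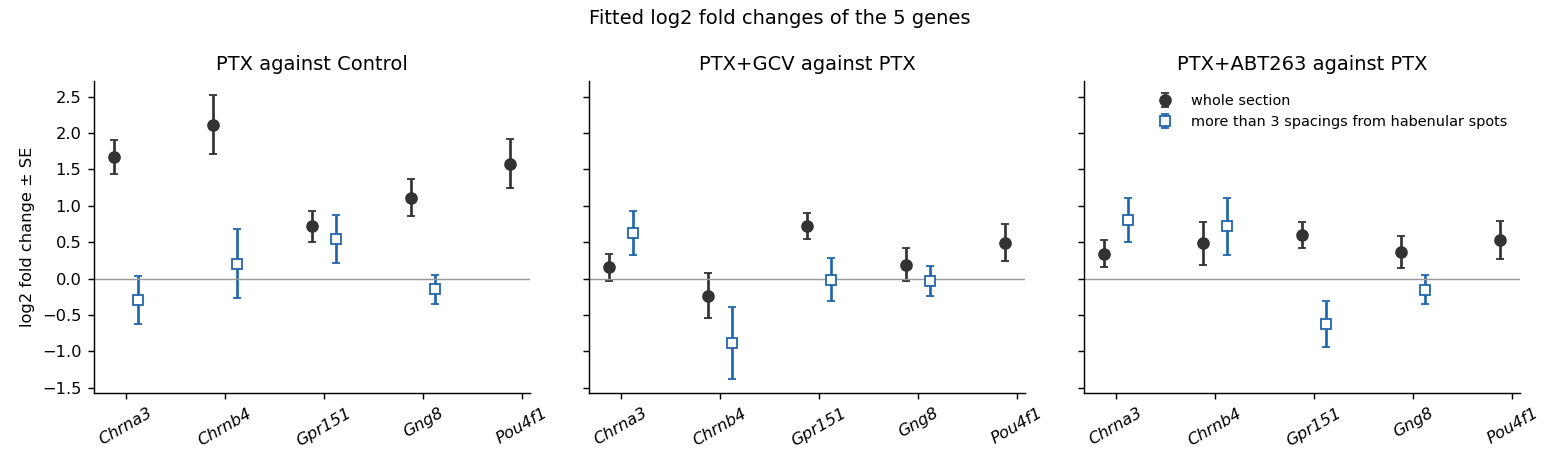
Fitted log2 fold changes with standard errors (edgeR) over whole sections (filled circles) and over spots more than 3 spacings from habenular spots (open squares; Pou4f1 not fitted). Against Control the whole-section values of Chrna3 and Chrnb4 with PTX were 1.67 and 2.12, and those of the remaining tissue were -0.29 and 0.20.

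The other genes of the pathway were tested over whole sections, and few passed. Of 9 further nicotinic subunits tested 0 passed in PTX against Control (edgeR; 2 had an unadjusted p under 0.05 and DESeq2 called 0), with a median log2 fold change of 0.11 beside 0.01 over all genes. Chrnb3, the β3 subunit, had 38 and 26 UMIs in the habenular spots with PTX, 12 and 40 with PTX+GCV and 20 and 30 in the PTX+ABT263-labelled sections, against 0 and 2 in Control, and its whole-section log2 fold change was 1.22 (SE 0.36, adjusted p = 0.179 in edgeR). Chrnb2, the β2 subunit of cortical and thalamic receptors, stood at -0.22 (SE 0.09, adjusted p = 0.295 in edgeR). Chrna5, which shares the gene cluster with Chrna3 and Chrnb4, had 0 to 2 UMIs in the habenular spots of every section. Of 4 genes of acetylcholine synthesis, transport and breakdown tested 0 passed (edgeR; 2 had an unadjusted p under 0.05 and DESeq2 called 0), and the vesicular transporter Slc18a3 stood at 0.73 (SE 0.29, adjusted p = 0.299 in edgeR) and the choline transporter Slc5a7 at 0.62 (SE 0.24, adjusted p = 0.299 in edgeR). Slc5a7 had 57 and 46 UMIs in PTX habenular spots and 0 and 4 in Control. Of 10 other G protein γ subunits 0 passed (edgeR; 2 had an unadjusted p under 0.05 and DESeq2 called 0), with Gng2 at -0.19 (SE 0.06, adjusted p = 0.235 in edgeR) and Gng11 at 0.19 (SE 0.09, adjusted p = 0.365 in edgeR). Of 12 α and β subunits 0 passed (edgeR; 3 had an unadjusted p under 0.05 and DESeq2 called 0), with Gnb3 at 1.83 (SE 0.45, adjusted p = 0.140 in edgeR) and Gnb1 at -0.22 (SE 0.07, adjusted p = 0.202 in edgeR). Of 9 muscarinic receptors and receptor chaperones 0 passed (edgeR; 5 had an unadjusted p under 0.05 and DESeq2 called 0), with Lypd1 at -0.92 (SE 0.28, adjusted p = 0.201 in edgeR) and Tmem35a, a chaperone of nicotinic receptors, at -0.20 (SE 0.06, adjusted p = 0.204 in edgeR). Of 9 further habenular and POU-domain transcription factors 0 passed (edgeR; 4 had an unadjusted p under 0.05 and DESeq2 called 0), with Irx2 at 0.73 (SE 0.23, adjusted p = 0.198 in edgeR) and Irx5 at -0.89 (SE 0.32, adjusted p = 0.256 in edgeR).

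Among 14 other medial habenula genes 1 rose in PTX against Control and 0 fell (edgeR, beside 0.126% of all genes called; 5 up and 1 down had an unadjusted p under 0.05 and DESeq2 called 4). Tac2 rose with a log2 fold change of 0.86 (SE 0.14, adjusted p = 0.0448 in edgeR), with 43.5 and 48.3 CPM in the PTX sections, against 29.6 and 19.8 in the Control sections. Its adjusted p ran from 3.82e-21 to 0.196 over 15 alternatives, and it did not pass in 7 of them. These were without Control section 2 (0.61, adjusted p = 0.0864), without PTX section 1 (0.94, adjusted p = 0.127) or PTX section 2 (0.78, adjusted p = 0.196), without PTX+ABT263-labelled section 1, section 2 or both (0.86 in each, adjusted p = 0.0540, 0.0535 and 0.0569), and with a replicate block. More than 3 spacings from the patch Tac2 had levels of 28.2 and 30.6 CPM in the PTX sections, against 29.8 and 18.6 CPM in the Control sections, which overlap. In the same comparison 6 thalamus genes had a median log2 fold change of -0.42 (5 down at an unadjusted p under 0.05, 3 called by DESeq2) and 5 striatum genes one of 0.57 (4 up at an unadjusted p under 0.05, 0 called by DESeq2), and 0 of either passed edgeR. Their part in the result was not tested. Of 8 lateral habenula genes 0 passed (edgeR; 3, all lower with PTX, had an unadjusted p under 0.05 and DESeq2 called 1).

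In PTX+GCV against PTX 0 genes of these 8 lists passed edgeR, and DESeq2 called 2, both G protein γ subunits. In the PTX+ABT263-labelled sections, Cartpt, a peptide gene of the lateral habenula and of the hypothalamus, rose by 1.58 (SE 0.24, adjusted p = 0.0251 in edgeR), at 130 and 76.96 CPM against 34.7 and 39.6 in the PTX sections. Only 31 and 45 of its 4969 and 2778 UMIs were in habenular spots there, and 37 and 17 of 1489 and 1511 with PTX. The call was lost without PTX section 1 (1.49, adjusted p = 0.268), without PTX section 2 (1.69, adjusted p = 0.0954) and without PTX+ABT263-labelled section 1 (1.2009, adjusted p = 0.0913), and the adjusted p ran from 1.22e-82 to 0.268 over 14 alternatives. The levels of the thalamus list were 430 to 823 CPM and those of the hypothalamic neuropeptide list 87.3 to 1655 over the 8 sections, and their part in this result was not tested.

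A second definition of habenular spots left out the 5 genes. It took spots with at least 5 summed UMIs of 9 other habenular genes from 3 or more of them, Nwd2 or Kctd12b included. It gave 20 and 26 spots with PTX, 16 and 30 with PTX+GCV and 23 and 19 in the PTX+ABT263-labelled sections, against 3 and 13 in Control. PTX exceeded Control by 15 spots on average (23.0 ± 4.24 and 8 ± 7.07, SD, n = 2 sections each; two-sided exact permutation p = 0.333, the smallest this design allows). PTX+GCV against PTX differed by 0 spots (exact permutation p = 1) and the PTX+ABT263-labelled sections against PTX by -2 (exact permutation p = 0.667, n = 2 sections each). The 3 spots of Control section 1 were scattered, and 0 of them were among the 7 spots found by the 5 genes, so they do not measure the habenula of that section.

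Of these spots 13 of 20 and 16 of 26 with PTX were also found by the 5 genes, against 0 of 3 and 7 of 13 in Control. The spots compared in the fit below thus match those of the 5 genes only in part, and in Control section 1 not at all. Its differences cannot be read as differences within the habenula. Over 7704 genes tested in these spots 5 rose and 3 fell in PTX against Control (edgeR; 15 and 3 with total counts), which is 0.104%. Of the 5 that rose, Tac2 is 1 of the 9 genes that found the spots and Chrna3 is 1 of the 5 selected genes. Neither of them is read as a result. Chrna3 had a log2 fold change of 3.11 (SE 0.49), Chrnb4 3.51 (SE 0.74), Gpr151 0.69 (SE 0.49), Gng8 2.18 (SE 0.55) and Pou4f1 1.81 (SE 0.59). Over 18 alternatives these ranged from 2.76 to 9.48 for Chrna3, 2.66 to 8.70 for Chrnb4, -0.06 to 9.46 for Gpr151, 1.29 to 11.002 for Gng8 and 1.25 to 8.18 for Pou4f1. The value of Chrna3 was 9.48 without Control section 2, where the 3 remaining Control spots held 0 UMIs of it, so that value is no measure of size. Gpr151 stood at -0.06 in the spots found by the 5 genes and at -0.02 in touching spots. By the 9 genes Control section 1 had 0 touching spots, so the Control there is section 2 alone, with 5 spots. Of the genes not used to find the spots, Cpne9, a copine, rose by 3.09 (SE 0.46, adjusted p = 0.00296 in edgeR), Necab3, a calcium-binding protein gene, by 2.02 (SE 0.32, adjusted p = 0.00373 in edgeR) and Kcnip1, a potassium channel interacting protein gene, by 2.52 (SE 0.45, adjusted p = 0.0157 in edgeR). Cpne9 had 141 and 123 UMIs in the PTX spots and 0 and 7 in the Control spots. Necab3 did not pass without Control section 2 (1.84, adjusted p = 0.176) or PTX section 1 (1.94, adjusted p = 0.0643), and Kcnip1 did not without Control section 1 (2.15, adjusted p = 0.0534) or PTX section 1 (2.43, adjusted p = 0.0683). Glul, glutamine synthetase of astrocytes, fell with a log2 fold change of -1.25 (SE 0.24, adjusted p = 0.0420 in edgeR), and did not pass without PTX section 1 (adjusted p = 0.533), PTX section 2 (0.279), Control section 2 (0.412) or PTX+GCV section 2 (0.0617). Bc1, a neuronal noncoding RNA, fell with a log2 fold change of -2.13 (SE 0.32, adjusted p = 0.00315 in edgeR), and did not pass without PTX section 2 (-1.69, adjusted p = 0.233) or in the spots defined by the 5 genes (-0.89, adjusted p = 0.276). Pmch, the melanin-concentrating hormone gene of the hypothalamus, fell with a log2 fold change of -9.47 (SE 1.40, adjusted p = 0.00296 in edgeR) on 2 and 0 UMIs with PTX and 5 and 518 in Control. In the largest group of touching spots, with Control section 2 alone, it stood at 2.91.

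In the same spots 0 genes passed in PTX+GCV against PTX (edgeR; 199 had an unadjusted p under 0.05 and DESeq2 called 0), which is 0%. The smallest p belonged upward to Tbkbp1 (1.34, SE 0.41), Chrna4, the α4 nicotinic subunit (1.46, SE 0.45) and Gdf11 (1.38, SE 0.43), each with an adjusted p = 0.9999 in edgeR, and downward to S100a10 (-1.40, SE 0.36), Mgst3 (-0.93, SE 0.24) and Ttr (-3.55, SE 0.94), likewise with an adjusted p = 0.9999 in edgeR. Chrna3 stood at 0.35 (SE 0.26), Chrnb4 at 0.16 (SE 0.34), Gpr151 at 0.91 (SE 0.39), Gng8 at 0.55 (SE 0.43) and Pou4f1 at 0.59 (SE 0.33). Over 20 alternatives Gpr151 and Pou4f1 stayed above 0, and the direction changed for Chrna3 (-0.36 to 0.56), Chrnb4 (-0.57 to 0.59) and Gng8 (-0.17 to 1.07). In the PTX+ABT263-labelled sections against PTX 3 genes passed, which is 0.0389% (2 up and 1 down; 1 and 1 with total counts): Hcrt and Pmch, both hypothalamic neuropeptides, and Ddx3y. Hcrt had 243 UMIs in section 1 and 6 in section 2 of them, against 0 and 0 with PTX, and Pmch had 438 and 16, against 2 and 0. Without section 1 Hcrt did not pass (5.86, adjusted p = 0.136), and without PTX section 1 or 2 neither did (adjusted p = 0.0520 to 0.204). Chrna3 stood at 0.67 (SE 0.26), Chrnb4 at 0.73 (SE 0.32), Gpr151 at 1.14 (SE 0.38), Gng8 at 0.92 (SE 0.42) and Pou4f1 at 0.88 (SE 0.32). These depended on the spots: in those found by the 5 genes Chrna3 stood at -0.23 and Chrnb4 at -0.02, and in touching spots at 0.07 and 0.13. Without section 1 of the PTX+ABT263-labelled sections Chrnb4 was 1.22 and without section 2 it was 0.12.

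Over all kept spots the genes most alike to the summed 5 genes were Nwd2, Nhlh2, Lrrc55, Tac2, Irx1, Tspan18, Sncg, Zic1, Lhx9 and Necab2, among 12452 genes compared. The measure is the mean over the 8 sections of the Pearson correlation over spots of log2 UMIs per 10000 plus 1, which was 0.31 for Nwd2 and 0.24 for Necab2. Spots of a section share its library and depth, and no test was made. For Nwd2 it was 0.34 to 0.45 in the 6 paclitaxel sections and 0.10 and 0.09 in the Control sections, and for Tac2 it was 0.34 to 0.43 and -0.02 and 0.14. Within habenular spots Chrna3 and Chrnb4 correlated at 0.35 to 0.87 over 19 to 34 spots in the paclitaxel sections and at 0.13 over 15 spots in Control section 2. There each of the 2 genes had only 8 UMIs, at most 2 and 1 in a spot, so the 0.13 is not comparable. Gpr151 and Gng8 ran from -0.01 to 0.71.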

How the data were processed

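Visium spatial libraries of 8 coronal brain sections were analysed. Reads were aligned and counted by the authors on mm10, using Space Ranger (1.2.1 in the file headers), and the deposited values are raw UMI counts per gene and spot with array positions; strandedness of counting is not given in the sources used here. Seurat 4.0, named in the submitters' processing notes, is not in the counts. Spots under tissue with at least 200 genes and at most 30% mitochondrial UMIs were kept. The members and gene lists were chosen with earlier results of these data known. UMIs were summed per section (n = 2 per group) over all kept spots, habenular spots or the rest, and tested with edgeR 4.0.16 (TMM, filterByExpr, quasi-likelihood F-test, all 4 groups, Benjamini-Hochberg over all genes, threshold 0.05). Standard errors were obtained by dividing a log2 fold change by the root of its F statistic. DESeq2 1.42.0, total counts, no filter, a replicate block, other spot thresholds, 2 groups only and leaving out each section were alternatives. Steps were tested on simulated data. Intervals from a count of 0 (3 counts) cover counting error only. Named genes are the 5 members, of each list those passing in whole sections or otherwise the 2 with the smallest p in PTX against Control, in habenular spots up to 5 each way that pass and separate the sections (3 each way where none passes; members, panel, sex-linked and unnamed genes left out), and the 10 most alike among genes with 50 or more UMIs in every section. Ddx3y was named after its values were seen. Gene positions are from GENCODE M21 and promoters from RefSeq, which matched 4 of the 5 genes. Python 3.11.15 with numpy 2.4.6, scipy 1.17.1, pandas 2.3.3 and matplotlib 3.10.9 were used. Images and the authors' clusters were not used here.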

Additional observations from a re-analysis of the deposited data

How the results depend on the processing

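In whole sections PTX against Control gave 21 genes, and 152 with DESeq2, 874 with no filter on low counts, 66 with the 2 groups only, 54 with total counts, 2 with a replicate block and 0 to 78 leaving out 1 section. PTX+GCV against PTX gave 4, and 82 with DESeq2, 547 with no filter, 56 with 2 groups, 36 with total counts, 22 without the PTX+ABT263 group, 2 with a replicate block and 0 to 50 leaving out 1 section. PTX+ABT263 against PTX gave 23 (14 up, 9 down), and 116 with DESeq2, 712 with no filter, 89 with 2 groups, 118 with total counts (26 up, 92 down) and 12 to 65 leaving out 1 section. In habenular spots PTX against Control gave 8, and 122 with 10 or more panel UMIs, 207 in the spots defined by the 5 genes, 14 with DESeq2, 108 in touching spots, 59 with no filter, 27 with 2 groups, 18 with total counts, 30 without the PTX+ABT263 group and 5 to 52 leaving out 1 section. PTX+GCV against PTX gave 0, and 3 with 10 or more panel UMIs, 6 in the spots of the 5 genes, 3 in touching spots with or without Control, 7 with no filter, 1 with 2 groups, 1 without the PTX+ABT263 group and 0 to 1 leaving out 1 section. PTX+ABT263 against PTX gave 3, and 13 with 10 or more panel UMIs, 1 with 3 or more, 11 in the spots of the 5 genes, 0 with DESeq2, 11 in touching spots (13 without Control), 94 with no filter, 0 with 2 groups, 7 without Control and 0 to 144 leaving out 1 section. The difference in spot number by the 9 genes was 10 to 20 for PTX against Control, -7 to 7 for PTX+GCV against PTX and -5 to 1 for PTX+ABT263 against PTX leaving out 1 section. The last, -2 in all spots, was -6.5 with 3 or more UMIs, 0 with 10 or more UMIs, 0.365 and 0.89 after thinning to 5000 UMIs per spot (5 or more and 2 or more) and 2.5 in touching spots. Pmch in PTX against Control turned to 2.91 in touching spots, where Control section 2 alone was left in its group. Replicate numbers did not pair the sections (residual correlations -0.115 to 0.0662 in whole sections, -0.224 to 0.165 in habenular spots). With a replicate block Tac2 did not pass (0.86, adjusted p = 0.119), nor did Glul (-1.23, adjusted p = 0.152) or Kcnip1 in habenular spots (2.56, adjusted p = 0.0741). The cause of these changes was not tested, beyond fewer sections or other spots being used. Settings marked by touching spots, or leaving out a whole group, were chosen after seeing the data.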

Other observations

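In the largest group of touching spots found by the 9 habenular genes, an alternative chosen after seeing the data, 13 and 15 spots with PTX, 15 and 22 with PTX+GCV and 15 and 18 in the PTX+ABT263-labelled sections could be compared. With PTX+GCV against PTX, Ttr, the transthyretin gene of the choroid plexus, fell with a log2 fold change of -4.27 (SE 0.59, adjusted p = 7.99e-07 in edgeR), Ddn, a dendritic protein gene, rose by 1.62 (SE 0.30, adjusted p = 0.00197 in edgeR) and Cplx2, a complexin of synaptic vesicle release, rose by 1.27 (SE 0.27, adjusted p = 0.0159 in edgeR). In the PTX+ABT263-labelled sections, 10 genes rose and 1 fell, the smallest p belonging to Gm42418, a gene model that overlaps ribosomal RNA sequence (1.56, SE 0.22, adjusted p = 6.69e-07 in edgeR), and Bc1 (1.53, SE 0.23, adjusted p = 7.45e-06 in edgeR). Of the other risers 7 are encoded in the mitochondrial genome, which was not tested as a group, and 1 is Xist, and the gene that fell is Ddx3y. These genes were named after their values were seen. Genes of the choroid plexus, which borders the habenula, had 1.67 and 23.9 UMIs per 10000 in habenular spots with PTX, 1.006 and 1.10 with PTX+GCV, 292 and 0.493 in the PTX+ABT263-labelled sections and 3.23 and 1.48 in Control.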
